A study of Mus musculus with 9 samples.

Results

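The vascular endothelial growth factor (VEGF) family was followed here through 10 genes: the 5 ligands Vegfa, Vegfb, Vegfc, Vegfd and Pgf, the 3 receptor tyrosine kinases Flt1, Kdr and Flt4, and the 2 neuropilins Nrp1 and Nrp2. Its members were found on the array by their transcript accession, which gave 13 probes among 39429; Vegfa, Kdr and Nrp2 had 2 probes each and the other members 1. All 10 genes passed the filter on dim probes and were among the 23889 genes tested. Retinal RNA of adult male C57BL/6 mice was hybridised to 9 one-colour Agilent arrays. The right eye of each mouse had received phosphate-buffered saline (PBS, the control), the peptide AAP or the peptide HAN into the vitreous, and the retina was taken 7 days later. The series title describes both peptides as directed against VEGF, and the labels give 1 µM, a wording that covers PBS as well. Each group had 12 mice, and 4 retinas were pooled for an array, so the 3 arrays of a group measured pools. The p-values of the group comparisons set a difference against the spread between pools.

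VEGF ligands are secreted proteins that drive the growth and leakiness of blood vessels. Vegfa, made in the retina by Müller glia, neurons and pigment epithelium among others and induced by low oxygen, acts mainly through Kdr (VEGF receptor 2) on endothelial cells, while Flt1 (VEGF receptor 1) binds it tightly and, in its soluble form, holds it back. Vegfc and Vegfd signal through Flt4 (VEGF receptor 3), best known from lymphatic vessels, and neuropilins are co-receptors that also bind the axon guidance cues called semaphorins.

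No member of the family passed the test in any comparison. With limma and Benjamini-Hochberg adjustment over all genes tested, 0 of 10 members had an adjusted p under 0.05 for AAP against PBS, where 1 gene in all passed (0.00419%), a transcript named by its accession only. The count was likewise 0 of 10 for HAN against PBS, with 1 gene in all (0.00419%), and for AAP against HAN, where no gene passed (0%). At an unadjusted p under 0.05, 0 of 10 members were below it for AAP against PBS, beside 6.78% of all genes, and 0 of 10 for HAN against PBS, beside 9.66%. Between the peptides 2 of 10 were, Vegfc and Nrp1, beside 8.54% of all genes. The median log2 difference of the members was -0.06 for AAP minus PBS, 0.03 for HAN minus PBS and -0.07 for AAP minus HAN, and that of all genes lay at 0.00 in each. Groups that did not overlap were equally close to the rest of the array, with 1 member for AAP against PBS (all genes 12.0%), 2 for HAN against PBS (20.9%) and 1 for AAP against HAN (14.3%).

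**Figure D1:**
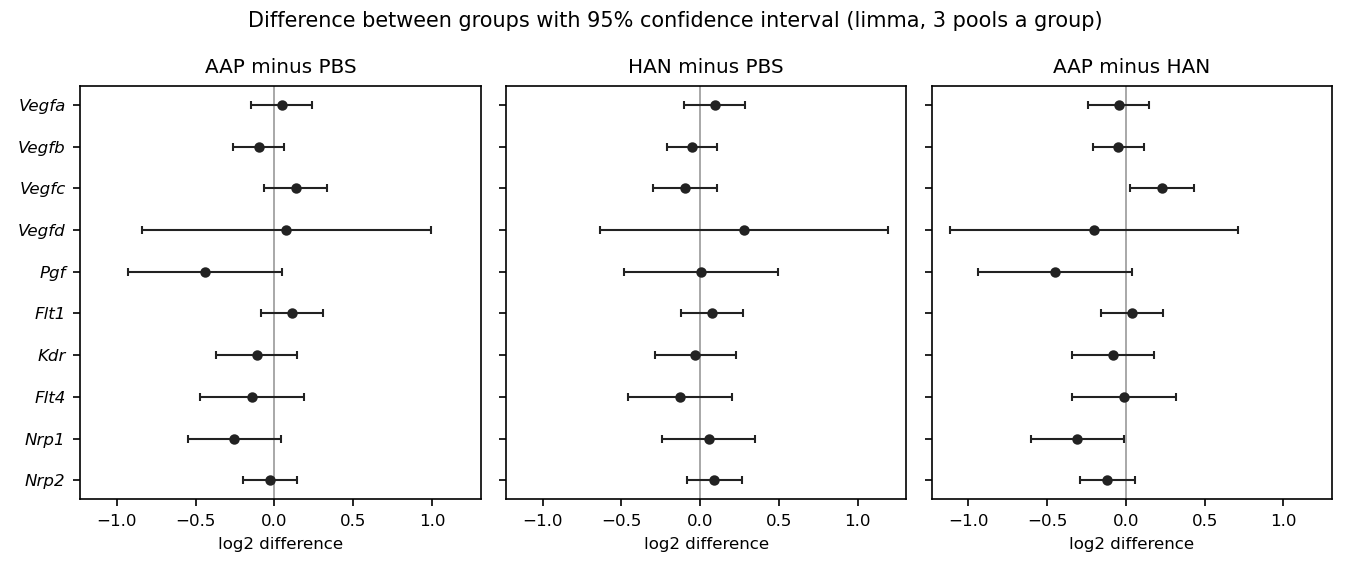
Log2 difference of each member between groups, with points for the limma estimate and bars for its 95% confidence interval, 3 pools a group. The bars of Vegfc and Nrp1 leave 0 for AAP minus HAN, and all other bars cross it; Vegfd has the widest.

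Values below are log2 processed signals minus the 75th percentile of the array, so that 0 is a bright probe of the array and a step of 1 is a doubling. In order of probe brightness, the mean over the 9 arrays was 2.64 for Kdr, 2.43 for Flt1, 1.52 for Vegfa, 0.51 for Nrp2 and 0.50 for Vegfb. Lower in the order came -2.16 for Vegfc, -4.00 for Vegfd, -4.14 for Pgf, -4.19 for Nrp1 and -6.26 for Flt4. Neighbours in this order whose ranges over the arrays overlapped were Kdr and Flt1, Nrp2 and Vegfb, and the trio of Vegfd, Pgf and Nrp1; the steps to Vegfa, Nrp2, Vegfc, Vegfd and Flt4 lay outside the ranges. Among the probes kept, Kdr stood at percentile 89.8, Flt1 at 88.5 and Flt4 at 1.17. The order is one of probes and not of transcripts, since probes of the same gene also differed. The brighter Vegfa probe was 7.17 times as bright as the dimmer, the Nrp2 probes differed 5.58-fold and the Kdr probes 1.35-fold.

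**Figure D2:**
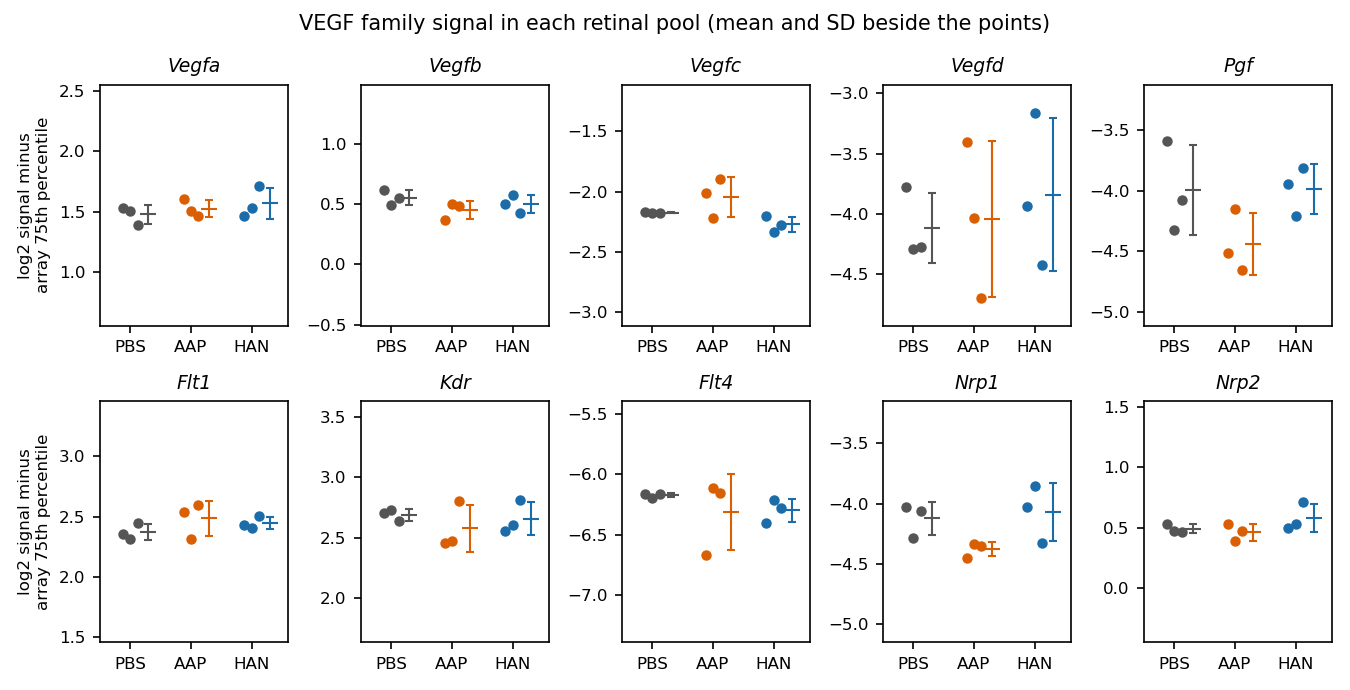
Log2 signal minus the array's 75th percentile for the brightest probe of each member, with 1 point a pool and the mean and SD of the 3 pools of a group beside them. Every panel spans 2 log2 units, so the scatter can be compared between panels: Vegfd and Pgf are spread most, and PBS, AAP and HAN overlap for most members.

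Among the ligands, Vegfa is the chief vascular growth factor and the one that anti-VEGF drugs bind. Its brighter probe (A_52_P638895, NM_001025250) read 1.53, 1.51 and 1.39 in the PBS pools, 1.60, 1.50 and 1.46 in the AAP pools, and 1.46, 1.53 and 1.72 in the HAN pools. The groups overlapped, and HAN 3 was the highest pool. The difference was 0.05 for AAP minus PBS (95% confidence interval -0.15 to 0.24, adjusted p = 0.93, limma) and 0.09 for HAN minus PBS (-0.10 to 0.29, adjusted p = 0.77). These intervals correspond to 0.90- to 1.18-fold and 0.93- to 1.22-fold, so at this probe a larger change in either direction lay outside them.

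The dimmer Vegfa probe (A_52_P249424, NM_001025257) ordered the pools differently. It read -1.47, -1.41 and -1.52 in the PBS pools, -1.26, -1.19 and -1.20 in the AAP pools, and -1.24, -1.27 and -1.31 in the HAN pools, so all 6 peptide pools lay above all 3 PBS pools. The difference was 0.25 for AAP minus PBS (0.11 to 0.38, unadjusted p = 0.00285, adjusted p = 0.67 over 29272 probes, limma) and 0.19 for HAN minus PBS (0.06 to 0.33, unadjusted p = 0.0115, adjusted p = 0.45). Neither passed the threshold. In the same fit, adjusted p fell under 0.05 for 0.00342% of probes in each peptide comparison and for 0% of probes between the peptides. Of all probes, 11.8% had non-overlapping groups for AAP against PBS and 20.7% for HAN against PBS, and 6.61% and 9.38% had an unadjusted p under 0.05. Slide was partly confounded with the groups: slide 1 held the 3 PBS pools and AAP 1, slide 2 held AAP 2, AAP 3, HAN 1 and HAN 2, and slide 3 held HAN 3. Within slide 1 the dimmer Vegfa probe was 0.21 higher in AAP 1 than in the mean of the PBS pools. Every value given below as within slide 1 likewise sets AAP 1 alone against PBS, and is given without an interval. With slide as a fixed block, AAP minus PBS at the dimmer Vegfa probe was the same 0.21, with an interval of -0.009 to 0.42. Unlike that of the main fit, this interval includes 0. No slide held both PBS and HAN, and for these groups only the fit with slide as a block, joined through AAP, is to be had: it gave 0.15 (-0.14 to 0.43).

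Vegfb, a ligand of Flt1 linked to the survival of vessels and neurons, varied least among the members, with a pooled SD within groups of 0.07 and a rank at percentile 12.1 of all genes in spread. Its probe read 0.61, 0.49 and 0.55 in the PBS pools, 0.37, 0.50 and 0.48 in the AAP pools, and 0.50, 0.58 and 0.42 in the HAN pools. The groups overlapped, with AAP 1 lowest. AAP minus PBS was -0.10 (-0.26 to 0.06, adjusted p = 0.81, limma), or -0.18 within slide 1, and HAN minus PBS was -0.05 (-0.21 to 0.11, adjusted p = 0.85).

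Vegfc, a lymphatic growth factor, read -2.17, -2.18 and -2.18 in the PBS pools, -2.01, -2.22 and -1.90 in the AAP pools, and -2.21, -2.33 and -2.28 in the HAN pools. The 3 HAN pools lay below the 3 PBS pools, although by little, while AAP 2 fell among the HAN values. AAP exceeded HAN by 0.23 (0.03 to 0.43, unadjusted p = 0.0306, adjusted p = 0.57, limma) and by 0.21 within slide 2. Against PBS the differences were 0.13 for AAP (-0.07 to 0.34) and -0.10 for HAN (-0.30 to 0.11), and neither interval left 0. With a normexp background correction of the median spot signal, chosen after the files were seen, AAP minus HAN was 0.02 and HAN minus PBS 0.16.

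Vegfd, the other ligand of Flt4, was the most variable member, at percentile 93.4 of all genes in spread. It read -3.78, -4.29 and -4.28 in the PBS pools, -3.40, -4.03 and -4.69 in the AAP pools, and -3.94, -3.16 and -4.42 in the HAN pools. AAP 1 and HAN 2 were high and AAP 3 was low, and every group spanned the middle of the range. The HAN mean exceeded PBS by 0.28 with an interval of -0.64 to 1.19 (adjusted p = 0.86, limma), which covers a fall to 0.64-fold and a rise to 2.29-fold. AAP minus PBS was 0.08 (-0.84 to 0.99) over all pools and 0.72 within slide 1, and AAP minus HAN was -0.20 over all pools and -0.81 within slide 2. Without AAP 1, AAP minus PBS was -0.25, and without HAN 2, HAN minus PBS was -0.06.

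The array carried the Vegfd probe and 1 Kdr probe in 10 copies, whose scatter measures the error of a spot but not that of labelling or hybridisation. For Vegfd the coefficient of variation over the copies ran from 3.17% to 13.5% of the signal on an array, and the standard error of an array's mean was at most 0.06 on the log2 scale, against an SD of 0.55 between pools of a group. Its mean processed intensity ran from 52.2 in AAP 3 to 225 in HAN 2. For Kdr the coefficient of variation was 2.88% to 5.12%, the standard error at most 0.02 and the SD between pools 0.14. Within PBS the Kdr pools had an SD of 0.05, against a standard error of 0.02 for the mean of the copies on PBS 2.

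**Figure D3:**
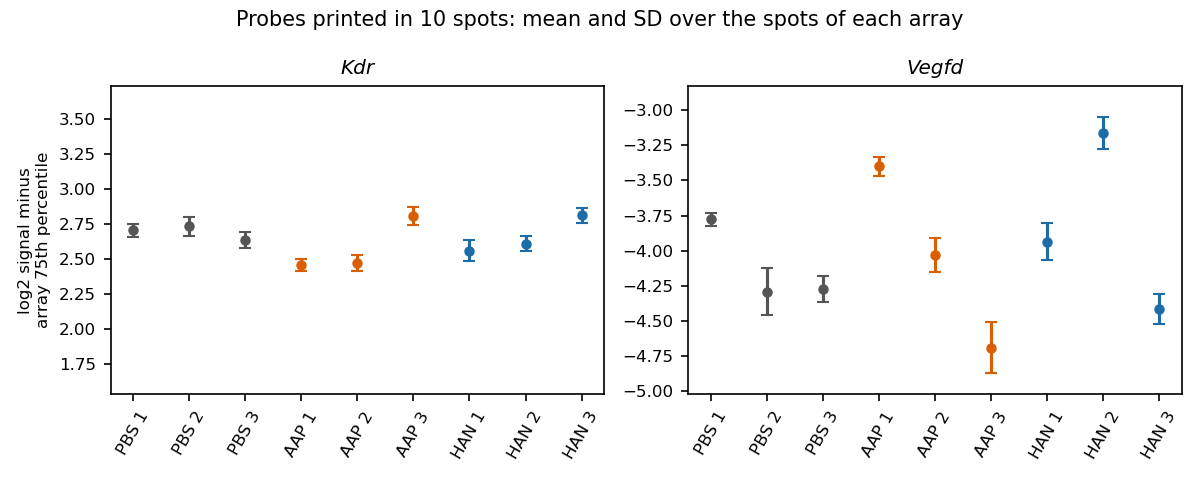
Mean and SD over the spots of the probes printed in 10 copies, per array, as log2 signal minus the array's 75th percentile, on axes that span the same 2.2 log2 units. The bars are short beside the distance between pools for Vegfd, from AAP 3 at -4.69 to HAN 2 at -3.16, while the Kdr pools lie between 2.46 and 2.81.

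Marker genes of neighbouring tissues also differed between the pools. The 11 measured pigment epithelium markers did not vary as 1 group, and were split after their values were seen. Relative to PBS, the mean of the 5 melanin genes (Pmel, Tyrp1, Dct, Mlana and Tyr) was 0.26, 0.04 and -0.29 in the PBS pools, -1.05, -0.33 and -1.58 in the AAP pools, and -0.53, 0.93 and -1.25 in the HAN pools. That of the other 6 (Rpe65, Rgr, Lrat, Ttr, Rdh5 and Slc16a8) was 0.07, -0.02 and -0.05 in PBS, 1.13, -0.05 and 0.12 in AAP, and -0.18, -0.15 and -0.74 in HAN. AAP 1 thus lay above PBS for the second set and below it for the first, while HAN 2 lay above PBS for the melanin genes. Over 9 measured markers of cornea, iris and ciliary body the mean ran from -1.09 to 1.49 in PBS, from -1.72 to 1.69 in AAP and from -0.20 to 0.01 in HAN. This mean joined markers that went opposite ways. In AAP 1, Krt15 read 7.31, Krt5 5.59 and Krt14 4.77 relative to PBS, while Optc read -3.02 and Krt12 -1.43. The part of such tissue in the Vegfd values was not tested. In pooled tissue, fewer cells of a type and less RNA per cell cannot be told apart.

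Pgf, placental growth factor, is a ligand of Flt1. It read -3.59, -4.32 and -4.08 in the PBS pools, -4.51, -4.15 and -4.65 in the AAP pools, and -3.94, -4.21 and -3.81 in the HAN pools. AAP 1 and AAP 3 were the lowest pools, while AAP 2 lay inside the range of PBS and of HAN. Its AAP mean, -4.44 ± 0.26 (SD, n = 3), was the furthest from PBS of any member: AAP minus PBS was -0.44 (-0.93 to 0.05, adjusted p = 0.73, limma), or 0.74-fold (0.52- to 1.03-fold), and -0.52 within slide 1. With normexp, AAP minus PBS was -0.20 and HAN minus PBS 0.47. HAN and PBS differed by 0.01 (-0.48 to 0.50), an interval wide enough to hold the AAP difference too. AAP minus HAN was -0.45 (-0.94 to 0.04), and -0.32 within slide 2.

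Of the receptors, Flt1 read 2.35, 2.32 and 2.44 in the PBS pools, 2.54, 2.32 and 2.60 in the AAP pools, and 2.43, 2.41 and 2.51 in the HAN pools. AAP 1 and AAP 3 were highest and AAP 2 was level with the lowest PBS pool. Differences from PBS were 0.11 for AAP (-0.08 to 0.31, adjusted p = 0.82, limma) and 0.08 for HAN (-0.12 to 0.27, adjusted p = 0.81).

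Kdr, the main signalling receptor for Vegfa, read 2.70, 2.73 and 2.64 in the PBS pools, 2.46, 2.47 and 2.81 in the AAP pools, and 2.56, 2.61 and 2.81 in the HAN pools at the probe printed in 10 copies (A_51_P316553, NM_010612). AAP 3 and HAN 3 were above all PBS pools and the other 4 peptide pools below them. The difference was -0.11 for AAP minus PBS (-0.37 to 0.14, adjusted p = 0.86, limma), or -0.23 within slide 1, and -0.03 for HAN minus PBS (-0.29 to 0.23, adjusted p = 0.95), or -0.29 with slide as a block.

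The second Kdr probe (A_55_P2094469), which the array lists under the same transcript, read 2.37, 2.44 and 2.24 in the PBS pools, 2.13, 2.42 and 2.23 in the AAP pools, and 2.08, 2.03 and 1.98 in the HAN pools. All 3 HAN pools lay below every PBS and AAP pool. HAN minus PBS was -0.32 (-0.53 to -0.11, unadjusted p = 0.00797, adjusted p = 0.44, limma), or -0.48 with slide as a block (-0.87 to -0.09), and AAP minus HAN was 0.23 (0.02 to 0.44, adjusted p = 0.59), with 0.27 within slide 2. Between the peptides, 8.39% of all probes had an unadjusted p under 0.05 and 14.2% had non-overlapping groups. In HAN 3 the probes of Kdr parted most, since that pool was the highest of 9 at the first and the lowest of 9 at the second.

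Flt4 was at the limit of detection. It was well above background on 3 of 3 PBS arrays, 1 of 3 AAP arrays and 3 of 3 HAN arrays, at processed intensities between 18.8 and 32.9. Its log2 values were -6.16, -6.19 and -6.16 in the PBS pools, -6.67, -6.11 and -6.15 in the AAP pools, and -6.40, -6.22 and -6.28 in the HAN pools. The HAN pools lay below the PBS pools, and AAP 1 stood far below the rest. Neither interval of a difference from PBS left 0: -0.14 for AAP (-0.47 to 0.19) and -0.13 for HAN (-0.46 to 0.20), with adjusted p of 0.86 and 0.81 (limma). The pooled SD within groups was 0.19, and the SD of the pools was 0.02 in PBS, 0.31 in AAP and 0.09 in HAN.

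Nrp1, a co-receptor that strengthens signalling of Vegfa through Kdr, read -4.03, -4.28 and -4.06 in the PBS pools, -4.45, -4.34 and -4.35 in the AAP pools, and -4.03, -3.85 and -4.33 in the HAN pools. The 3 AAP pools were the lowest of the 9, with PBS 2 and HAN 3 just above them. AAP minus PBS was -0.25 (-0.55 to 0.04, adjusted p = 0.74, limma) over all pools and -0.32 within slide 1. AAP minus HAN was -0.31 (-0.60 to -0.01, unadjusted p = 0.0417, adjusted p = 0.57, limma) and -0.40 within slide 2. Under the normexp background correction, AAP minus PBS was -0.01, HAN minus PBS 0.65 and AAP minus HAN -0.66.

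Nrp2, the co-receptor tied to Vegfc and Flt4 in lymphatic vessels, read 0.53, 0.47 and 0.46 in the PBS pools, 0.53, 0.39 and 0.47 in the AAP pools, and 0.50, 0.53 and 0.71 in the HAN pools at its brighter probe (A_52_P93910, NM_001077403). The groups overlapped and HAN 3 was the highest pool. AAP minus PBS was -0.03 (-0.20 to 0.14) and HAN minus PBS 0.09 (-0.08 to 0.26), with adjusted p of 0.95 and 0.74 (limma).

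Its dimmer probe (A_65_P15245, NM_001077406) read -1.77, -1.88 and -2.03 in the PBS pools, -2.02, -2.22 and -2.10 in the AAP pools, and -1.99, -1.84 and -1.88 in the HAN pools. AAP 2 and AAP 3 were the lowest pools, followed by PBS 3 and AAP 1. AAP minus PBS was -0.22 (-0.43 to -0.02, unadjusted p = 0.0370, adjusted p = 0.74, limma) and -0.13 within slide 1. With slide as a fixed block, AAP minus PBS had an interval of -0.45 to 0.19, which includes 0. AAP minus HAN was -0.21 (-0.42 to -0.005, unadjusted p = 0.0461, adjusted p = 0.59, limma) and -0.25 within slide 2. All AAP pools lay below all HAN pools at this probe (14.2% of all probes had non-overlapping groups).

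The gap between the probes of a gene was compared directly with exact permutation tests (two-sided, 9 tests, 3 pools a group, for which 0.1 is the smallest p possible). The gap differed by -0.20 for Vegfa in AAP against PBS, by 0.29 for Kdr in HAN against PBS and by 0.19 for Nrp2 in AAP against PBS, each at exact p = 0.1 and adjusted p = 0.3. In the other 6 tests the exact p was 0.2 to 0.8. Over the 9 pools the correlation between probes was 0.21 for Vegfa (Spearman's rho -0.12, exact permutation p = 0.59 and 0.78), -0.06 for Kdr (rho -0.07, exact p = 0.88 and 0.88) and 0.60 for Nrp2 (rho 0.78, exact p = 0.081 and 0.0172). After adjustment over the 3 genes, those for Nrp2 were 0.24 and 0.052. Without the 2 pools furthest from the median of the brighter probe, r was -0.26, 0.13 and 0.60. Which transcripts each probe detects was not analysed here.

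**Figure D4:**
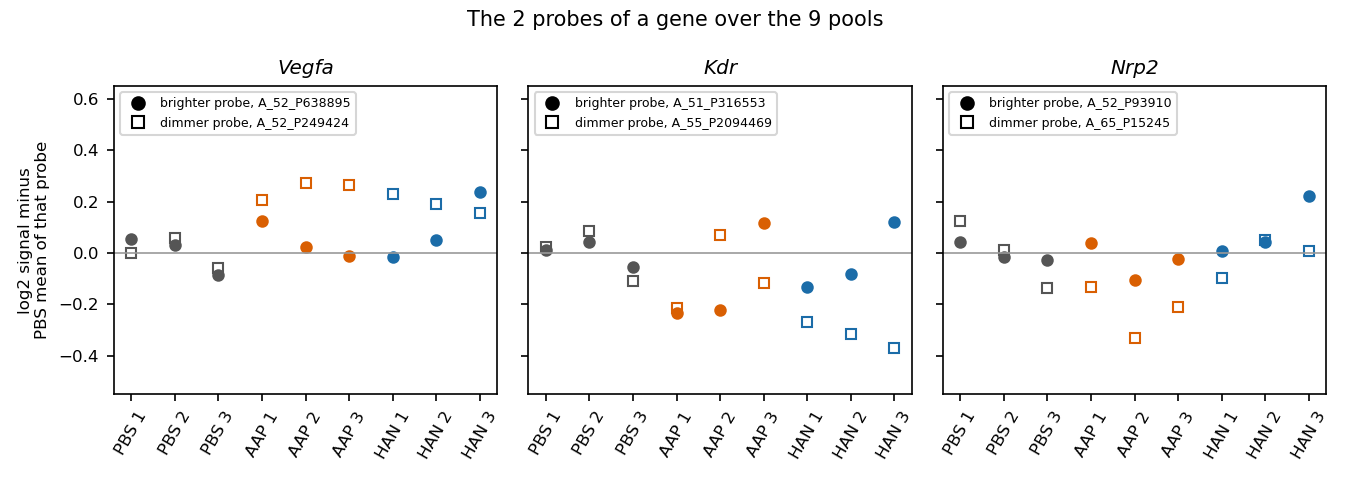
Log2 signal of the brighter (filled circles) and the dimmer probe (open squares) of Vegfa, Kdr and Nrp2 in each pool, minus the PBS mean of that probe. The dimmer Vegfa probe is above 0 in all 6 peptide pools, while the brighter one stays near 0 except in AAP 1 and HAN 3; the dimmer Kdr probe is below 0 in all 3 HAN pools.

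The order of the group means differed from gene to gene, and in no member did neighbouring groups in that order differ beyond the 95% interval of their difference. Across the 45 pairs of members, the highest correlations over the 9 pools were those of Vegfb with Nrp1 (r = 0.81, rho 0.75, exact permutation p = 0.00672 and 0.0255) and of Vegfa with Nrp2 (r = 0.81, rho 0.78, exact p = 0.0182 and 0.0172). Neither passed adjustment over the pairs, at adjusted p of 0.30 and 0.41 for r and 0.47 for both rho. Without the 2 pools furthest from the median of the first gene, r was 0.79 for Vegfb with Nrp1 and 0.45 for Vegfa with Nrp2. Leaving out such pools also narrows the range, and rho was not computed without them. The ligand Vegfd and the receptor Kdr ran in opposite directions (r = -0.64, rho -0.73, exact p = 0.0625 and 0.0311, adjusted p = 0.54 and 0.47).

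Genes with the most similar pattern over the 9 pools were sought among 15211 genes with a curated transcript. Among the ligands, Vegfb was closest to Dock6 (r = 0.95), Vegfc to Gnmt (0.98), Vegfd to Fam13a (0.98) and Pgf to Ajap1 (0.96). For the receptors and co-receptors the closest were Mark2 for Flt1 (0.96), Ccdc157 for Kdr (0.96), Med10 for Flt4 (0.98), Aifm2 for Nrp1 (0.97) and E2f2 for Nrp2 (0.97). The next 2 genes for each member had r of 0.91 to 0.98; for Vegfd they were Palmd and Aldh1a2. Such values are ordinary with 9 pools: over all these genes the best match had a median r of 0.97, with 5% of genes under 0.92.

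The wider pathway was read from 5 lists of genes, and no gene of any list passed the test in any comparison (limma, adjusted over all genes). Over the 137 genes tested, 16 had an unadjusted p under 0.05 for AAP against PBS (11.7%, beside 6.78% of all genes), 10 for the HAN group (7.30%, beside 9.66%) and 11 between the peptides (8.03%, beside 8.54%). Of 44 genes that carry the signal inside the cell, all 44 were tested, and 1, 2 and 1 had an unadjusted p under 0.05 in these comparisons, in the same order. Their medians were 0.00, 0.04 and -0.04. Plcg1, the phospholipase that Kdr activates, was 0.37 higher in AAP than in PBS (0.14 to 0.60, adjusted p = 0.65, limma) and 0.48 higher within slide 1; its second probe gave 0.31.

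All 30 receptor partners and negative regulators were tested, of which 4, 2 and 2 had an unadjusted p under 0.05. Spry4, an inhibitor of signalling from receptor tyrosine kinases, had the smallest p of the list. It stood at -4.12 ± 0.12 in PBS, -3.50 ± 0.14 in AAP and -4.07 ± 0.19 in HAN (SD, n = 3 each), and the 3 AAP pools lay above the other 6. AAP minus PBS was 0.62 (0.34 to 0.90, unadjusted p = 0.000894, adjusted p = 0.63, limma), or 0.73 within slide 1, and AAP minus HAN was 0.57 (0.30 to 0.85, adjusted p = 0.57), or 0.49 within slide 2 and -0.06 with normexp. Myo1c, a motor protein that carries Kdr to the cell surface, was 0.30 higher in AAP and 0.24 higher in HAN than in PBS, with adjusted p of 0.63 and 0.39.

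Proteins that cleave, release or hold VEGF were represented by 18 tested genes of 20, of which 5, 2 and 3 had an unadjusted p under 0.05. Hpse, the heparanase that frees growth factors from the matrix, gave -0.65 for AAP minus PBS (-1.03 to -0.27, adjusted p = 0.63) and -0.86 for HAN minus PBS (-1.24 to -0.48, adjusted p = 0.36, limma). The peptide pools all lay below the PBS pools. Within slide 1 AAP minus PBS was -0.63, and the second Hpse probe gave -0.54 and -0.37. With normexp, HAN minus PBS was -0.52. Adamts1, a protease that binds and holds back Vegfa, gave -0.60 for AAP minus PBS (-0.92 to -0.29, adjusted p = 0.63) and -0.67 for AAP minus HAN (-0.98 to -0.35, adjusted p = 0.57, limma). Adam17, which sheds receptors from the cell surface, was 0.25 higher in AAP than in PBS and 0.31 higher than in HAN, and its second probe gave 0.22 and 0.30. With normexp, AAP minus HAN was -0.35 for Adam17, so its sign turned.

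Among 22 regulators of Vegfa transcription and messenger stability, all were tested and 1, 2 and 3 had an unadjusted p under 0.05. Stat3, an activator of Vegfa transcription, gave -0.54 for AAP minus PBS (-1.06 to -0.03, adjusted p = 0.73, limma), and -0.27 within slide 1. Sp3, which binds the GC-rich Vegfa promoter, gave -0.26 for HAN minus PBS (-0.41 to -0.11, adjusted p = 0.38, limma), and 0.15 with normexp. Hif1a, the oxygen-regulated activator of Vegfa, gave -0.19 for AAP minus PBS (-0.37 to 0.00, adjusted p = 0.73, limma), and -0.10 with normexp.

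Endothelial genes that VEGF is known to induce gave 23 tested genes of 30, of which 5, 2 and 2 had an unadjusted p under 0.05. Plat and Plaur, an activator and a receptor of the plasminogen system, gave -0.72 (-1.15 to -0.29) and -1.08 (-1.72 to -0.44) for AAP minus PBS, each at adjusted p = 0.63 (limma), and Plat gave -0.56 for HAN minus PBS (-0.99 to -0.13, adjusted p = 0.44). Within slide 1, AAP minus PBS was -0.38 for Plat and -0.63 for Plaur. With normexp, AAP minus PBS was -0.24 for Plaur and HAN minus PBS was -0.22 for Plat. Plaur was well above background on 7 of the 9 arrays. Markers of microglia and macrophages, which also make plasminogen system proteins, differed between the same groups: the mean of 11 measured markers, relative to PBS, ran from -0.04 to 0.07 in the PBS pools, -0.89 to -0.28 in the AAP pools and -0.91 to -0.15 in the HAN pools. For 9 of the 11 all AAP pools lay below all PBS pools (12.0% of all genes had groups that did not overlap, in either direction). For 7 of 11 all HAN pools lay below all PBS pools (20.9%, again in either direction). Ctss, a lysosomal protease of these cells, read 2.21, 2.07 and 2.07 in PBS, 1.68, 1.28 and 0.78 in AAP, and 1.82, 0.79 and 1.77 in HAN. HAN 2 was the lowest HAN pool for Ctss, Plat and Plaur. Of 5 astrocyte markers, 3 (Gfap, Aldh1l1 and Slc14a1) had all AAP pools below all PBS pools. Relative to PBS, Pax2 read -0.60, 1.11 and -1.18 in the AAP pools, and S100b 0.13, -0.07 and 0.02. For HAN, 0 of 5 astrocyte markers had all pools below all PBS pools. All of these markers were well above background on every array, and their part in the values of the list was not tested. Stc1, a secreted hormone that endothelial cells make under VEGF, was 0.28 higher in AAP than in PBS (0.08 to 0.49, adjusted p = 0.67, limma).

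**Figure D5:**
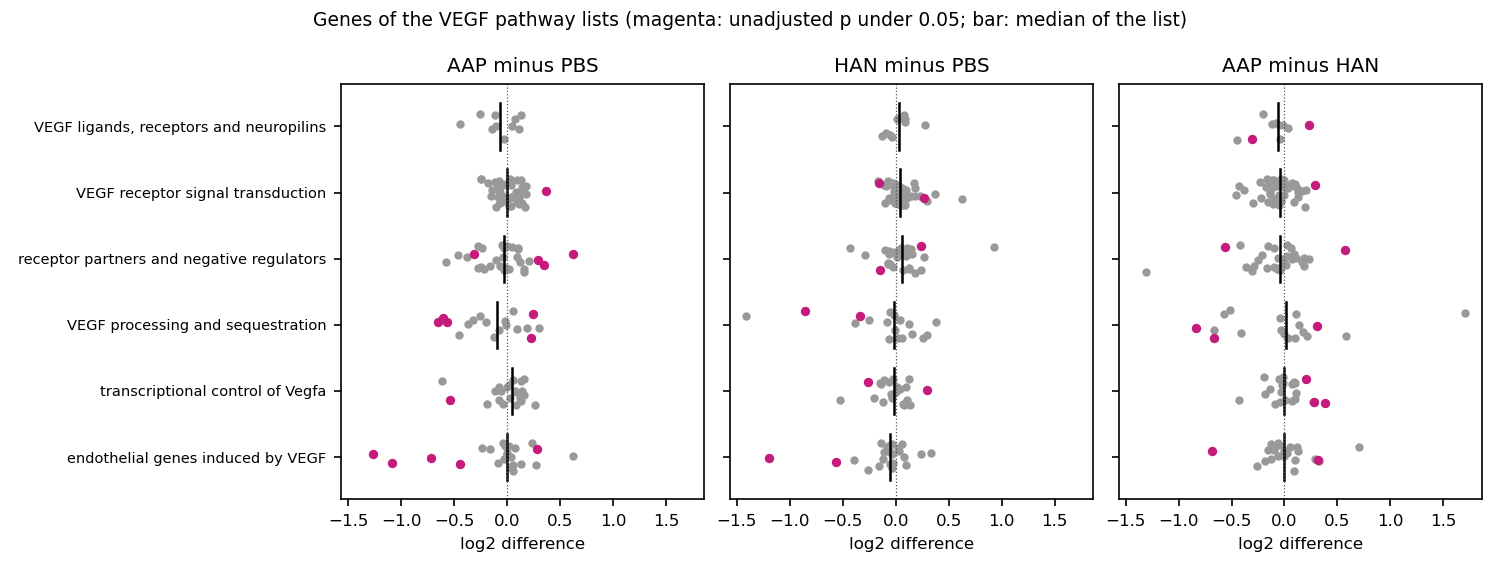
Log2 difference of each tested gene of the family and of the 5 pathway lists, with 1 point a gene, a black bar at the median of the list and magenta points for an unadjusted limma p under 0.05. The medians lie between -0.10 and 0.06 in all lists and comparisons, and no point passed adjustment over all genes.

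Endothelial content was read from 19 measured markers of endothelial cells. Their mean relative to PBS lay between -0.09 and 0.15 in the PBS pools, -0.13 and 0.41 in the AAP pools, and -0.08 and 0.08 in the HAN pools. AAP 1 was highest, and all 19 were well above background on every array. For 10 measured markers of pericytes and smooth muscle the mean ran from -0.14 to 0.26 in PBS, -0.78 to 0.25 in AAP and -0.17 to 0.12 in HAN, with AAP 3 lowest. These markers did not vary as 1 group. Relative to PBS, Anpep read 3.07 and Abcc9 1.22 in AAP 1, while Myh11 read -2.02 and Acta2 -1.31. In AAP 3, Myh11 read -2.72 and Acta2 -2.26, while Kcnj8 read 0.08 and Abcc9 0.10. The retina itself was present throughout, as all 10 rod and all 12 Müller glia markers were well above background on all 9 arrays. Tissue from outside the retina was uneven. The 11 measured skeletal muscle markers averaged 5.69 above PBS in AAP 1 and 4.41 in AAP 3, against -0.28 to 0.28 in the other pools. The mean of 12 lens markers ran from -2.32 in PBS 2 to 2.31 in AAP 2. The part of such tissue in the values above was not tested. Over all genes tested, the correlation between any 2 arrays was 0.98 to 1.00, and no spot was saturated.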

How the data were processed

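Values start from Agilent Feature Extraction 11.0.1.1 output, 1 scanner table an array. Per the file headers, its processed signal is a linear intensity from which background and spatial trend were removed within the array, with no scaling between arrays. The deposited value table repeated this intensity in at least 99.7% of its rows, at a relative tolerance of 0.0001. Each array had 43020 spots that were not controls, of which 103 to 160 outlier spots were left out. The signal was put on the log2 scale, the array's 75th percentile (1340 to 2349) was subtracted, and spots of a probe were averaged. A probe stayed in when every array of 1 group or more showed it well above background. Where a gene had several such probes, the brightest on average represented it.

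Probes were named through RefSeq gene tables (GRCm38.p6); the files use mm9, so no coordinates are given. Groups were compared two-sided with limma 3.58.1 (R 4.3.3), lmFit and eBayes, over all 9 arrays (6 residual and 1.85 prior degrees of freedom), adjusted over all genes or probes. The fit was tested on simulated data. The number of arrays limits the precision: the median half-width of a 95% interval was 0.24 on the log2 scale.

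Named genes were all members, the 3 most similar genes for each, and up to 4 genes with the smallest p of each pathway list and comparison; 1 of the similar genes is not reported here. The members and lists were chosen with earlier results of these data known. The normexp alternative used the median spot signal and was chosen after the files were seen.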

Additional observations from a re-analysis of the deposited data

How the results depend on the processing

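With 22 other settings, no member passed the threshold: 619 of 647 values stayed within 1 SD of replicates, 28 moved further, and 40 changed sign, of which 6 had been 0.1 or more in size. The normexp correction, which also moved the median of all genes to 0.15 for HAN minus PBS and -0.12 for AAP minus HAN, gave 0.83 for Vegfd and 0.78 for Flt4 in HAN minus PBS. With slide as a fixed block, HAN minus PBS was 1.53 for Vegfd and -0.68 for Flt4, which was well above background on 1 of 3 AAP arrays. Of 2848 values of pathway genes, 104 moved further than 1 SD, 108 changed sign and 0 passed. The dimmer Vegfa probe stayed at 0.21 to 0.28 (AAP minus PBS) and 0.15 to 0.35 (HAN minus PBS), with adjusted p of 0.12 at the lowest.

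Counts over the whole array changed more. For AAP against PBS, 0 genes passed with quantile normalisation, median centring, normexp, no filter or only 2 groups, and 46 (52 probes) with slide as a fixed block, where AAP 1 alone stands against PBS. For HAN against PBS, 0 passed with normexp, 2 (2 probes) with the slide block and 3 (7 probes) with array weights. No gene passed between the peptides in these fits. Leaving out 1 array gave 0 to 12 genes (0 to 14 probes) for AAP against PBS, 1 to 3 (1 to 2 probes) for HAN against PBS, and 0 to 13 (0 to 12 probes) for AAP against HAN; the highest of the AAP counts came without AAP 2, the AAP pool whose skeletal muscle markers lay nearest PBS (-0.28). Skeletal muscle markers averaged 5.69 above PBS in AAP 1, the only AAP pool on slide 1, and 4.41 in AAP 3. Without AAP 1 the count for AAP against PBS was 1 gene, and without any of the other 7 arrays it was 0. For HAN against PBS it was 3 without HAN 2 and 2 without HAN 1, and for AAP against HAN 1 without HAN 2. The cause was not tested.

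With the replicate number as a block, 0 genes and 0 probes passed in each comparison. Correlations of same-numbered deviations ran from -0.28 to 0.40. They were not set against a reference, so whether the numbers pair the pools was not tested. Normexp on the mean spot signal was not run: the scanner tables used here give the median spot signal.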
